A study of Mus musculus with 6 samples.

Results

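Glutathione is the tripeptide thiol of the cell. Glutamate-cysteine ligase and glutathione synthetase build it, glutathione reductase returns its oxidized form to the thiol, gamma-glutamyl enzymes take it apart, and glutathione S-transferases (GSTs) join it to electrophiles. The proximal tubule of the kidney, rich in gamma-glutamyltransferase on its brush border, breaks down much of the glutathione that reaches it from the blood and the filtrate. Many of these genes carry an antioxidant response element, the site through which the transcription factor Nrf2 raises them under oxidative stress. The genes described here are all those whose name in the array files begins with Gst and a class letter (a, k, m, o, p, or t) and number, with Mgst or Ggt and a number, or is Gstz1, Ggct, Gclc, Gclm, Gss, or Gsr. The name rule found 47 of the 56605 probes that are not controls, and these read 32 of 37325 genes.

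The study compared kidneys with and without selenium-binding protein 1 (Selenbp1), a protein that dioxin induces. Left kidneys came from 3 WT and 3 Selenbp1-KO mice, all male, of the strain C57BL/6J by the labels, 8 weeks old, and without food for 20 h. The WT mice were purchased, and whether the knockout mice had littermate controls is not given in the sources used here. The RNA of each mouse was labeled with 1 dye and hybridized to 1 array.

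All levels below are log2 of the processed signal minus log2 of the 75th percentile of the same array, so that 0 is a signal at that percentile, and all differences are Selenbp1-KO minus WT on this scale. Arrays are listed below in the order WT replicates 2, 3, 4 and Selenbp1-KO replicates 1, 2, 3. Selenbp1 itself was at 7.07, 7.02, and 7.02 in WT mice and at 4.13, 3.98, and 4.10 in the knockout, a difference of −2.96 (SE 0.0976, adjusted p = 0.00210, limma). The probe of its homolog Selenbp2, which the study describes as low in the kidney, differed by −3.22 (adjusted p = 0.00210, limma). Its mean was 7.13 in WT and 3.92 in Selenbp1-KO mice. Both probes stayed well above background on all Selenbp1-KO arrays. Which of the homologous transcripts each probe reads was not tested. The 75th percentile lay between 477 and 751 units, 51.8% to 55.5% of spots on an array were well above background, and no spot of the 47 probes was saturated. The labeled tissue was borne out by the markers of the tubule (Slc34a1, Lrp2, Umod, and Aqp2), which were well above background on all 6 arrays. The median difference of all 37028 genes tested was 0.13 under this scaling, 0.02 for the 18365 genes well above background on all 6 arrays, and 0.00 after quantile normalization. At an unadjusted p under 0.05, 3632 probes were higher and 847 lower under the scaling used, against 2527 and 2170 after quantile normalization. WT replicates 2 and 3 lay in slide row 1, and WT replicate 4 lay in slide row 2 with all Selenbp1-KO arrays. Of the markers of other cells, 4 of 5 for fibroblasts, 3 of 3 for red blood cells, and 4 of 6 for macrophages passed an unadjusted p under 0.05 upward. For lymphocytes 1 of 3 passed upward, and none of the 15 for tubules and endothelium passed. Whole kidneys were read, so a difference in the number of cells of a type and one in RNA per cell cannot be told apart.

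None of the 32 genes passed an unadjusted p under 0.05 in limma, and neither did any of the 47 probes. Over all genes tested 8.00% passed, and 5.48% of the genes well above background on all 6 arrays. The lowest unadjusted p among the 32 was 0.0585 (Gstt4, whose signal was not well above background), and the lowest adjusted p was 0.279. For 29 of the 32 genes the probe was well above background on all 6 arrays, for Ggt5 on 3, and for Ggt7 and Gstt4 on none. The median difference of the 32 genes was 0.07, which was 0.05 below that of all genes. Over the 29 genes it was also 0.07, 0.05 above that of the well-measured genes. Of the 32 differences 23 were positive and 9 negative, a share of 71.9% positive against 68.4% over all genes.

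The arrays limited how small a difference could be seen, since each group had 3 mice. The 95% interval of a gene's difference reached from 0.22 to 1.15 log2 units to either side over the 29 well-measured genes, with a median of 0.31. For 24 of the 29 genes the whole interval lay within 0.5 log2 units of 0, a 1.41-fold change, and for 28 within 1. A change beyond 1.41-fold therefore lay outside the interval for those 24 genes. Array by array, the 29 genes did not shift as 1 block. Selenbp1-KO replicate 2 had the lowest value of its group for 19 of them and the highest for 9, WT replicate 2 had the lowest of its group for 15, and Selenbp1-KO replicate 1 and WT replicate 4 each had the highest of their group for 14.

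**Figure D1:**
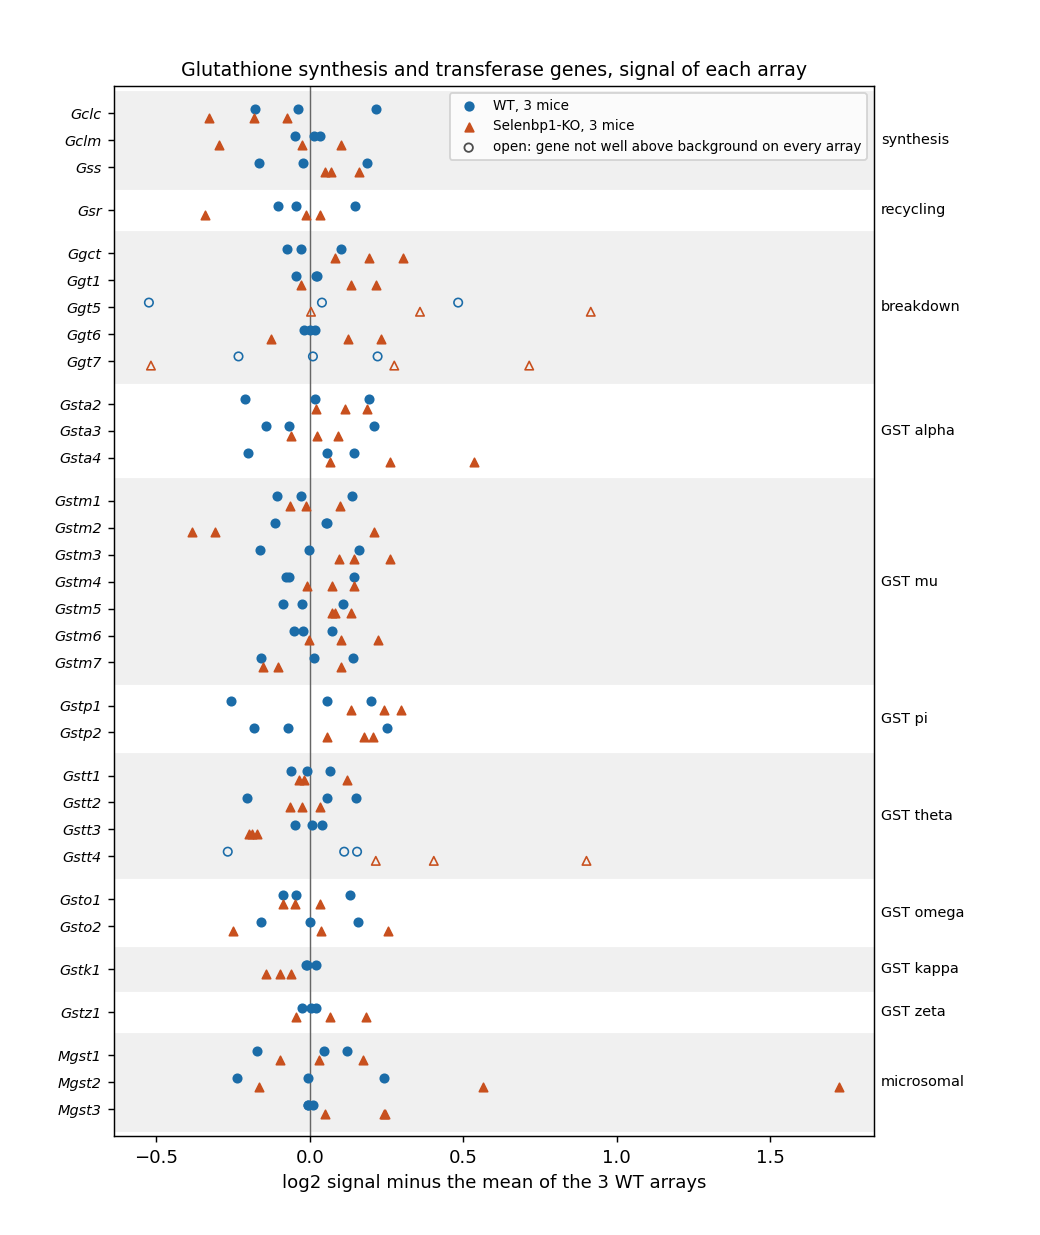
Level of each of the 32 genes on each array, as log2 signal minus the mean of the 3 WT arrays (horizontal axis), with WT mice as circles, Selenbp1-KO mice as triangles, and open symbols for genes not well above background on every array. The triangles lie wholly to the left of the circles for Gstt3 and Gstk1 and wholly to the right for Mgst3 and Gstt4, and Mgst2 has the widest spread.

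The groups did not overlap for 4 genes. In Mgst3 and Gstt4 all Selenbp1-KO values lay above all WT values, which held for 10.2% of all genes tested and 12.7% of the well-measured ones. In Gstk1 and Gstt3 all Selenbp1-KO values lay below all WT values, against 3.87% of all genes and 6.51% of the well-measured ones. Among the 29 well-measured genes these were 1 above and 2 below.

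A sequence feature that the name rule did not use is the antioxidant response element. Its core, TGACNNNGC, was searched on both strands of RefSeq windows (GRCm38.p6) that run from 250 bases before to 50 after each gene's start, and no other motif was searched. A window was found by symbol for 27 of the 32 genes. The core stood in 7 of these 27 genes (25.9%), against 3781 of all 27025 genes with a window (14.0%). It stood in 10 of 41 genes (24.4%) of the further glutathione list given below, which includes Nrf2 targets. Counted by window, it stood in 9 of 39 against 12.4% of all 32851 windows. A match is a run of letters and no shown site of binding. A gene can have several windows, and distances are to the start of the window that holds the match. Ggt1 also had matches at other starts of the gene, 36 bases before and 41 bases after them. For each of the 7 genes the match farthest before the start of its own window is printed. The core is in capitals, with 10 bases to each side, and the sequence is read so that the core runs 5′ to 3′:
Gclm, chr3:122245413-122245441, minus strand, 134 bases before the start: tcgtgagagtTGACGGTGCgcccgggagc
Ggct, chr6:54993023-54993051, plus strand, 174 bases before: tcccgcccacTGACGTCGCttttctattg
Ggt1, chr10:75571467-75571495, plus strand, 83 bases before: gtcacaagccTGACGCTGCgcctccttgc
Gsta3, chr1:21240454-21240482, plus strand, 121 bases before: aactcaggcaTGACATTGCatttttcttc
Gstm5, chr3:107895802-107895830, plus strand, 42 bases before: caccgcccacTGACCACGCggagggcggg
Gstm7, chr3:107931725-107931753, minus strand, 129 bases before: tctgaagaccTGACAAAGCgaagccaatc
Mgst1, chr6:138140461-138140489, minus strand, 56 bases before: ccccgcctccTGACCGTGCcaagccccgc
The differences of these 7 genes ran from −0.07 (Gclm) to 0.19 (Ggct), and none of the 7 passed the test.

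None of the 3 enzyme subunits of synthesis passed the test, and on the brightest probe of each the groups overlapped. Gclc encodes the catalytic subunit of glutamate-cysteine ligase, the rate-limiting step. Its level was 4.29, 4.54, and 4.15 in WT and 4.15, 4.00, and 4.25 in Selenbp1-KO mice. The groups overlapped, with Selenbp1-KO replicate 2 lowest, and the difference of −0.19 was the lowest of the 32 (95% interval −0.54 to 0.16, unadjusted p = 0.226, limma). Gclm, its modifier subunit, had levels of 5.37, 5.43, and 5.45 in WT and 5.52, 5.12, and 5.39 in Selenbp1-KO mice. Here Selenbp1-KO arrays were both the highest and the lowest of the 6, and the difference was −0.07 (interval −0.40 to 0.25). Gss, glutathione synthetase, had 2 probes, which differed by 0.09 and 0.18. On the dimmer of these probes all Selenbp1-KO values lay above all WT values, as for 10.2% of all genes tested and 12.7% of well-measured ones. The levels on it were 3.13, 3.09, and 3.12 in WT and 3.39, 3.15, and 3.34 in Selenbp1-KO mice. On the brighter probe the groups overlapped.

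Recycling and breakdown gave differences of the same size. Gsr, glutathione reductase, differed by −0.11 (interval −0.46 to 0.25). Ggt1, the main gamma-glutamyltransferase of the kidney, had levels of 4.59, 4.52, and 4.59 in WT and 4.78, 4.54, and 4.70 in Selenbp1-KO mice, and differed by 0.11 (interval −0.16 to 0.37). Ggct, gamma-glutamylcyclotransferase, which turns gamma-glutamyl amino acids into 5-oxoproline, had levels of 2.69, 2.64, and 2.82 in WT and 3.02, 2.80, and 2.91 in Selenbp1-KO mice. Only Selenbp1-KO replicate 2 fell within the range of the WT arrays, and the difference was 0.19 (interval −0.08 to 0.46, unadjusted p = 0.136, adjusted p = 0.380, limma). After quantile normalization the difference of Ggct was 0.18 with an unadjusted p of 0.0407 and an adjusted p of 0.571 (limma). In that setting 9.1% of all genes passed. Ggt6 differed by 0.08 (interval −0.23 to 0.38). The 3 probes of Ggt5 were well above background on 3 arrays at most, and that of Ggt7 on none, so for these genes no fold is given.

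Among the alpha class GSTs, which act on the products of lipid peroxidation among others, Gsta4 had the largest difference. Gsta4 encodes the form most active on 4-hydroxynonenal. Its levels were 0.37, 0.71, and 0.62 in WT and 0.83, 1.104, and 0.63 in Selenbp1-KO mice, so that Selenbp1-KO replicates 1 and 2 were above all WT arrays and replicate 3 was not. The difference was 0.29 (SE 0.165, interval −0.12 to 0.69, unadjusted p = 0.132, limma). Gsta2 differed by 0.11 and Gsta3 by 0.02, both with overlapping groups. A second Gsta3 probe differed by 0.07. Another was well above background on 1 WT array and no Selenbp1-KO array.

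**Figure D2:**
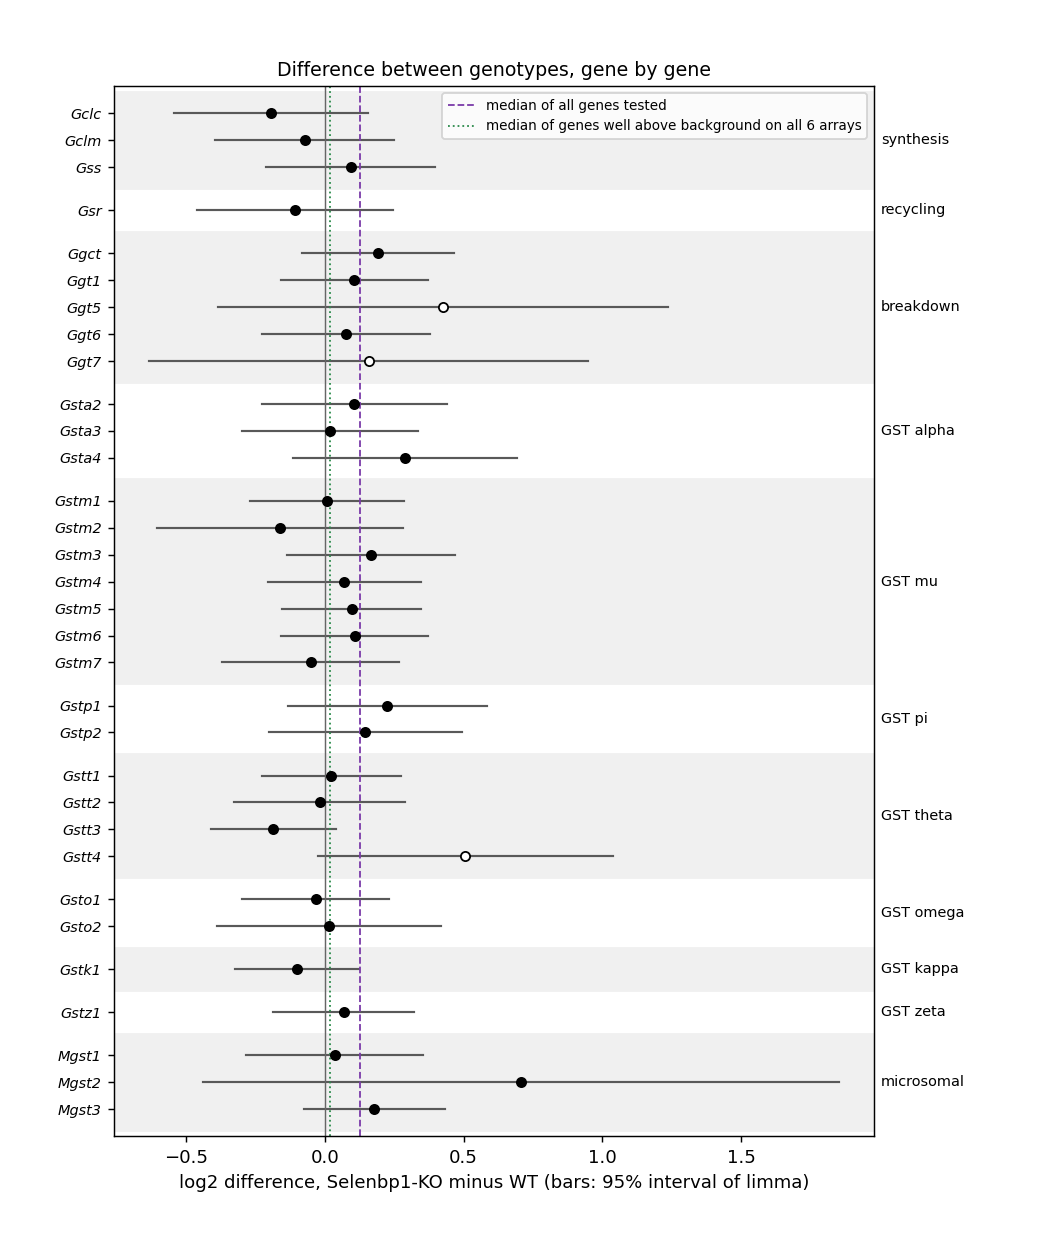
Difference of each gene, Selenbp1-KO minus WT in log2 units (horizontal axis), with the 95% interval of limma as a bar, open points for genes not well above background on every array, and vertical lines at the median of all genes tested (0.13) and of the genes well above background on all 6 arrays (0.02). Every bar crosses 0, and those of Gstt3 (−0.41 to 0.04) and Gstt4 (−0.03 to 1.04) come closest to lying on 1 side of it.

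The mu class, the largest cytosolic class in the mouse, had 7 genes, all of them well above background on all 6 arrays, and differences from −0.16 to 0.17. Gstm3 had levels of 6.55, 6.71, and 6.87 in WT and 6.85, 6.97, and 6.81 in Selenbp1-KO mice. Its groups overlapped through WT replicate 4, and the difference was 0.17 (interval −0.13 to 0.47). Gstm2 had levels of 4.61, 4.45, and 4.62 in WT and 4.25, 4.77, and 4.18 in Selenbp1-KO mice. Selenbp1-KO replicate 2 was the highest of the 6 arrays and the other two Selenbp1-KO arrays the lowest, for a difference of −0.16 (interval −0.60 to 0.28). Without Selenbp1-KO replicate 2 the difference of Gstm2 was −0.35 (unadjusted p = 0.0369, adjusted p = 0.523, limma), a setting in which 4.87% of all genes passed. Gstm4, Gstm5, Gstm6, and Gstm7 differed by 0.07, 0.10, 0.11, and −0.05, all with overlapping groups. On a second, dimmer Gstm5 probe all Selenbp1-KO arrays lay above all WT arrays, as for 10.2% of all genes tested, with a difference of 0.12 (interval −0.11 to 0.35).

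Gstm1 was read by 2 probes that name the same transcript. The files place the brighter one on chromosome 5 (117082490 to 117082549 of mm9) and the other within the cluster of the class on chromosome 3 (107815595 to 107815654). Their differences were 0.01 (interval −0.27 to 0.29) and 0.15 (interval −0.12 to 0.42), and neither passed. The Gstm cluster lies on the chromosome of Selenbp1, 12.95 to 13.10 Mb from the Selenbp1 probe. The 10 probes there gave differences from −0.16 to 0.40, the highest of them on a dim second probe of Gstm7 that was well above background on no array. Gclm, 27.2 Mb away on the same side, and Mgst2, 43.3 Mb away on the other, are the other genes of the 32 on chromosome 3.

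The pi class genes Gstp1 and Gstp2 are near-identical neighbors on chromosome 19. The Gstp1 probe lies at 4037306 to 4037365 of mm9 and reads, with no base set apart:
Gstp1 probe: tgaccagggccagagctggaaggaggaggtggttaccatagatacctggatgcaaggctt
No pair among the 47 probes matched in 80% of at least 20 aligned bases, over 1081 pairs, so the probes of the family are distinct from each other. Whether they also bind transcripts of other members was not tested, since no transcript sequences were used here. Gstp1 had levels of 3.20, 3.52, and 3.66 in WT and 3.76, 3.60, and 3.70 in Selenbp1-KO mice, with WT replicate 2 the lowest, and differed by 0.22 (interval −0.13 to 0.58). Gstp2 had levels of 6.49, 6.60, and 6.92 in WT and 6.88, 6.73, and 6.85 in Selenbp1-KO mice, a difference of 0.15 (interval −0.20 to 0.49). In both genes WT replicate 2 was the lowest array, and in Gstp2 WT replicate 4 was the highest. Without WT replicate 4 the difference of Gstp2 was 0.27 (unadjusted p = 0.0496, adjusted p = 0.159, limma), a setting in which 31.9% of all genes passed. Gstp3, of the same class, which the files list under another name and the name rule did not reach, differed by 0.07 (interval −0.31 to 0.45).

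The theta class held Gstt3, whose unadjusted p was the lowest of the 29 well-measured genes, each taken at its brightest probe. Gstt3 had levels of 4.15, 4.18, and 4.09 in WT and 3.97, 3.94, and 3.95 in Selenbp1-KO mice. The 3 Selenbp1-KO arrays lay together below all WT arrays. The difference was −0.19, or 0.879-fold (SE 0.0922, interval −0.41 to 0.04, unadjusted p = 0.0906, adjusted p = 0.297, limma). Gstt3 passed an unadjusted p under 0.05 in 5 of 18 alternatives, among them quantile normalization (difference −0.22, unadjusted p = 0.00492, adjusted p = 0.401) and the trend and robust options of limma (unadjusted p = 0.0172, adjusted p = 0.359). Of all genes, 9.1% passed after quantile normalization and 14.1% with the trend and robust options. The sign of Gstt3 was negative in all 18 alternatives. The neighbors Gstt1 and Gstt2 on chromosome 10 differed by 0.02 and −0.02. A second Gstt2 probe, named by another transcript, differed by −0.38 (interval −0.80 to 0.05, unadjusted p = 0.0745, adjusted p = 0.279, limma). That p was below the one of Gstt3, and the groups overlapped. Gstt4 is known mainly from the testis, and its probe was not well above background on any array, so its difference of 0.51 is between signals at the background.

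The omega, kappa, and zeta classes each have a role apart from conjugation. Gstk1, a mitochondrial and peroxisomal GST, had levels of 4.34, 4.38, and 4.35 in WT and 4.30, 4.22, and 4.26 in Selenbp1-KO mice. All Selenbp1-KO arrays were below all WT arrays, by a small difference of −0.10 (0.933-fold, interval −0.32 to 0.13, unadjusted p = 0.320, adjusted p = 0.618, limma). After quantile normalization the difference of Gstk1 was −0.15 (unadjusted p = 0.00578, adjusted p = 0.414, limma), a setting in which 9.1% of all genes passed. Gstk1 passed in 3 of 18 alternatives. Gstz1, maleylacetoacetate isomerase of tyrosine breakdown, differed by 0.07 and on its second probe by 0.05. Gsto1, which reduces dehydroascorbate and methylated arsenic, differed by −0.03 and on its second probe by −0.02. Gsto2 differed by 0.01.

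The microsomal transferases are membrane proteins of another fold, the MAPEG family. The probes of Mgst3, whose groups did not overlap, and of Mgst2, which had the largest difference, are shown with no base set apart:
Mgst3 probe, chr1:169303928-169303987 of mm9: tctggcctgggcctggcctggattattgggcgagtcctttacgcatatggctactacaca
Mgst2 probe, chr3:51486449-51486508 of mm9: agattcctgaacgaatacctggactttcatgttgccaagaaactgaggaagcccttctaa
Mgst3, a glutathione transferase and peroxidase, had levels of 4.15, 4.14, and 4.13 in WT and 4.38, 4.19, and 4.38 in Selenbp1-KO mice. The WT arrays were nearly alike (SD 0.00927, n = 3), and all Selenbp1-KO arrays were above them. The difference was 0.18, or 1.13-fold (SE 0.104, interval −0.07 to 0.43, unadjusted p = 0.136, adjusted p = 0.380, limma). A second, dimmer Mgst3 probe also had all Selenbp1-KO arrays above all WT arrays, with a difference of 0.41 (interval −0.10 to 0.93). After quantile normalization the first probe differed by 0.14 (unadjusted p = 0.0428, adjusted p = 0.576, limma), a setting in which 9.1% of all genes passed. Mgst1, the most abundant microsomal form of liver, differed by 0.04, and its second probe by −0.01.

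Mgst2, which can make leukotriene C4, had the largest difference of the 32 genes and the largest spread. Its levels were −2.76, −2.51, and −2.99 in WT and −2.19, −1.03, and −2.92 in Selenbp1-KO mice. Selenbp1-KO replicate 2 was far above the rest, and replicate 3 lay within the WT range. The difference was 0.71 (SE 0.469, interval −0.44 to 1.85, unadjusted p = 0.182, adjusted p = 0.453, limma). Without Selenbp1-KO replicate 2 it was 0.20. Without Selenbp1-KO replicate 3 it was 1.14 (unadjusted p = 0.0272, adjusted p = 0.291, limma), a setting in which 6.63% of all genes passed.

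The same arrays stood out in markers of the urothelium and of fat, tissues that line and surround the renal pelvis. Upk2, a uroplakin, had levels of 0.42, 0.61, and 0.17 in WT and 0.84, 2.09, and 0.18 in Selenbp1-KO mice, in the same order over the 6 arrays as Mgst2. Upk3a had 1.70, 1.92, and 1.69 in WT and 2.38, 3.11, and 1.74 in Selenbp1-KO mice. The order of Mgst2 was also that of the fat markers Adipoq and Cidec, but not that of Upk1b, Upk3a, Krt5, or Plin1. All 4 urothelial markers and all 3 fat markers were highest in Selenbp1-KO replicate 2, and none of these 7 passed the test. Adipoq, the fat hormone adiponectin, ranged from −0.62 in WT replicate 4 to 2.70 in Selenbp1-KO replicate 2. The part of these cells in the Mgst2 values was not tested.

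**Figure D3:**
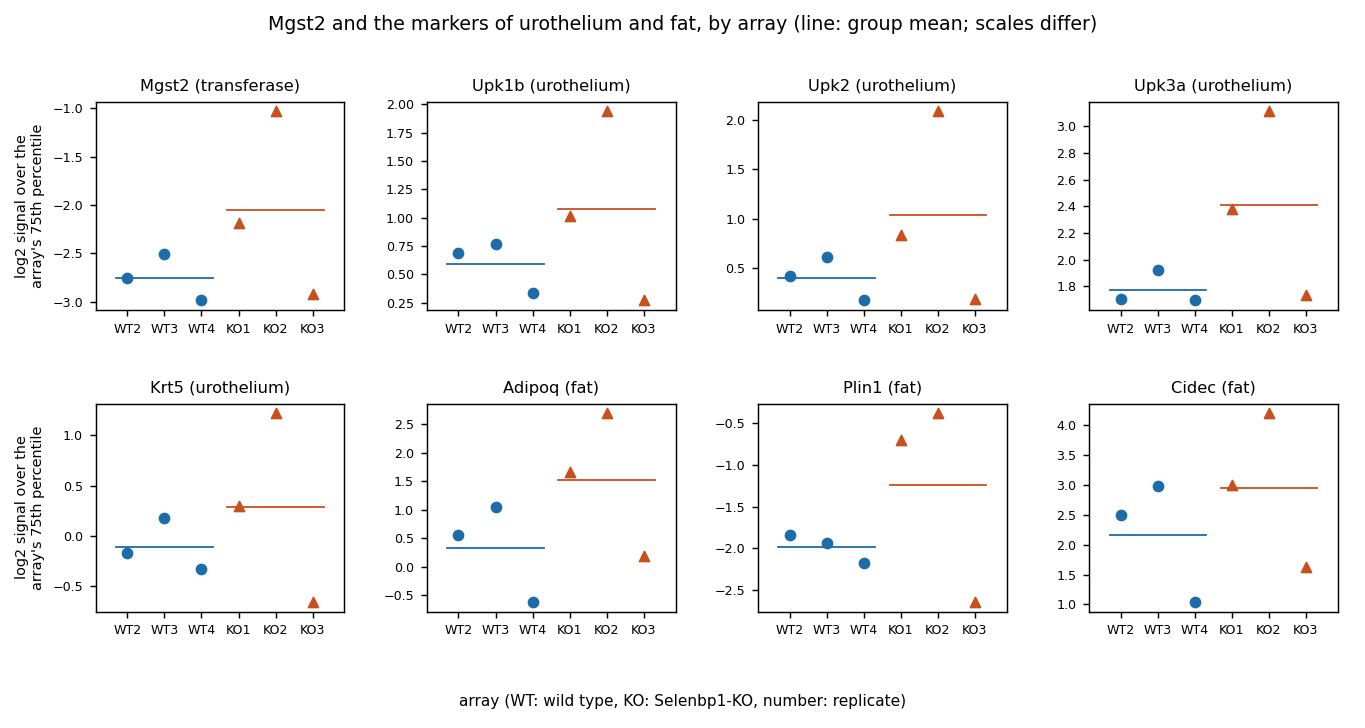
Level of Mgst2, of 4 urothelial markers, and of 3 fat markers on each array (log2 signal over the 75th percentile of the array, vertical axes on separate scales), with circles for WT, triangles for Selenbp1-KO mice, and lines at group means. Each of the 8 genes is highest in Selenbp1-KO replicate 2, where Mgst2 is at −1.03 and Upk2 at 2.09.

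Of the 13 genes with more than 1 probe, 10 had differences of 1 sign on all their probes. Among the 10 genes with at least 2 well-measured probes, the sign was shared in 9, Mgst1 being the exception, and the probes of a gene differed from each other by 0.02 to 0.36, with a median of 0.06. The widest gap was that of Gstt2. These gaps are of the size of the differences between the genotypes.

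Beside the 32 genes, 46 genes were counted, from a fixed list that goes beyond the supply, use, and export of glutathione. The list also holds Nrf2, its inhibitor, and its targets, and proteins of the GST fold or the MAPEG family, such as Alox5ap. Of the 46, 6 passed an unadjusted p under 0.05, as against 8.00% of all genes, and all 6 had an adjusted p of 0.279 (limma). Higher in Selenbp1-KO mice were Gpx4, the peroxidase of lipid hydroperoxides (0.38), Gpx7, a peroxidase of the endoplasmic reticulum (0.35), Ltc4s, leukotriene C4 synthase (0.37), Alox5ap, the activating protein of 5-lipoxygenase (0.54), and Slc7a11, the cystine carrier (0.59). Lower was Hpgds, a prostaglandin D synthase with the GST fold (−0.61). Slc7a11 and Hpgds were well above background on no array, so these differences are between signals at the background. Ltc4s and Alox5ap belong with Mgst2 and Mgst3 to the MAPEG family, as do Mgst1 and Ptges, which differed by 0.04 and 0.03. None of Mgst1, Mgst2, Mgst3, and Ptges passed the test.

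Gpx4 had levels of 7.13, 7.16, and 7.32 in WT and 7.59, 7.64, and 7.51 in Selenbp1-KO mice, with no overlap. The difference of 0.38 had an interval that did not cross 0 (SE 0.105, unadjusted p = 0.0111, limma) and passed in 16 of 18 alternatives, though not with slide row as a block. Alox5ap had levels of −1.32, −1.60, and −1.45 in WT and −0.85, −0.85, and −1.05 in Selenbp1-KO mice, and passed in all 18. Ltc4s passed in 16 of 18, Hpgds in 13, Gpx7 in 11, and Slc7a11 in 7. Alox5ap and Ltc4s are known from leukocytes. In the same comparison 4 of 6 macrophage markers passed upward, among them C1qc (0.60) and C1qa (0.58). Csf1r differed by 0.17 and Adgre1 by 0.36 without passing. Of the 3 lymphocyte markers only Cd3e passed upward (0.64). Cd79a (0.59) was well above background on no array, and Ptprc differed by −0.16 without passing. The part of these cells in Alox5ap and Ltc4s was not tested.

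The groups of 8 of the 46 genes did not overlap with Selenbp1-KO arrays above WT, among them Gpx1, Dpep1, and Glrx3 (0.13, 0.11, and 0.16), where 10.2% of all genes tested did so. Those of 2, Abcc4 (−0.18) and Hpgds, did not overlap with Selenbp1-KO arrays below, against 3.87% of all genes. Nfe2l2, which encodes Nrf2, its inhibitor Keap1, and its targets Nqo1, Hmox1, Srxn1, and Txnrd1 differed by −0.19 (Txnrd1) to −0.03, with none of the 6 past the test. The export pumps Abcc1, Abcc2, and Abcc4, which carry glutathione and its conjugates out of the cell, differed by −0.18 to −0.16, again with none past it. Cth and Cbs, which make cysteine from methionine, differed by 0.02 and −0.06. Genes that supply NADPH to glutathione reductase (G6pdx, Pgd, Me1, and Idh1) differed by −0.11 to 0.05.

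The count of 0 among the 32 genes depended on the processing. It was 4 (12.5%) after quantile normalization, where 9.1% of all genes passed, and 4 in the values the authors deposited, where 9.07% did, in both cases Ggct, Gstk1, Gstt3, and Mgst3. It was 7 (21.9%) with the trend and robust options of limma, where 14.1% of all genes passed. In 8 of 18 alternatives it was 0, and in none of the 18 did a gene of the 32 reach an adjusted p under 0.05. With slide row as a block, which here compares WT replicate 4 with the Selenbp1-KO arrays and is also the value within row 2, the median of the 32 genes was 0.01 and 17 were positive. The sign of a difference stayed the same in all 18 alternatives for 14 genes, 10 of them positive and 4 negative (Gclc, Gstk1, Gstm2, and Gstt3). Some of these came close to 0 with slide row as a block, where Gclc differed by −0.014, Gstp1 by 0.025, and Gstm3 by 0.0051.

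**Figure D4:**
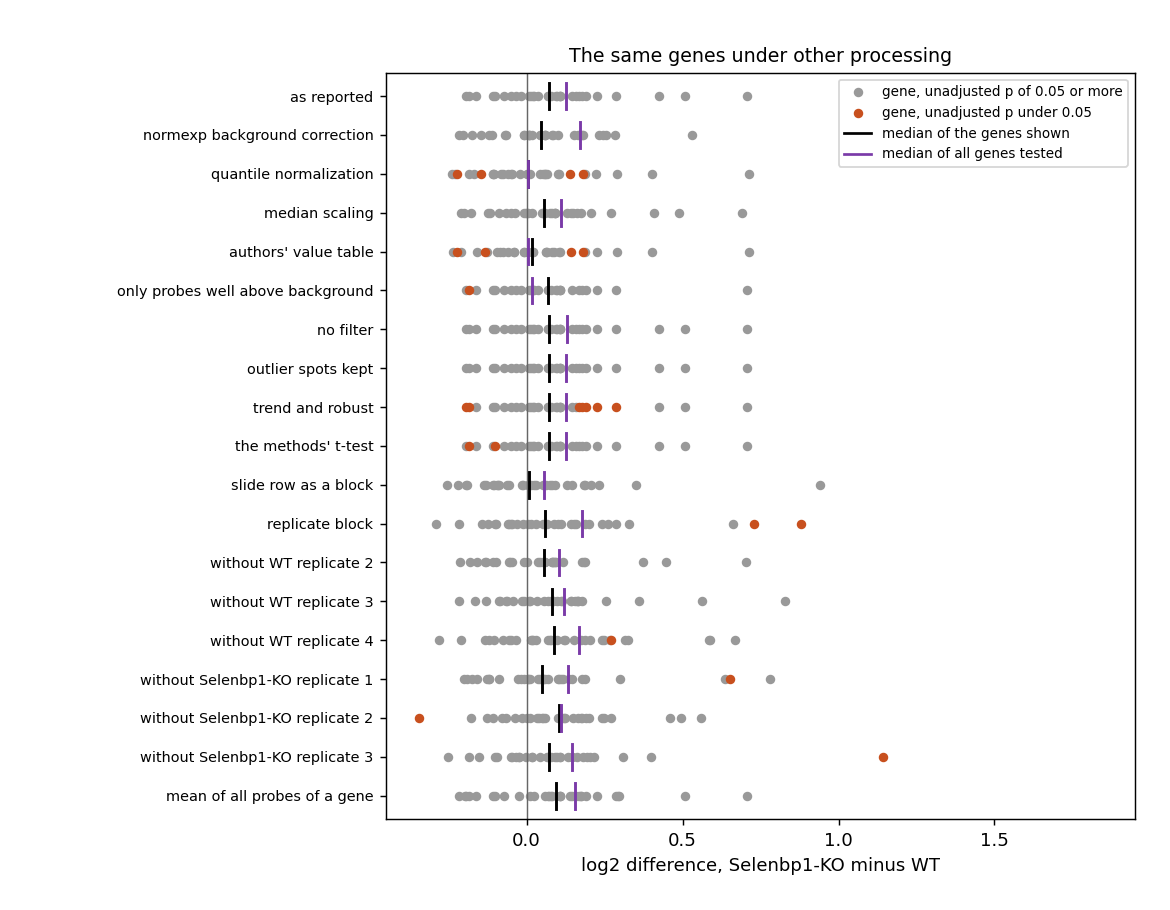
Differences of the same genes (points, Selenbp1-KO minus WT in log2 units on the horizontal axis) as reported and under 18 other settings, with orange points at an unadjusted p under 0.05, a black line at their median, and a purple line at the median of all genes tested. The number of orange points ranges from 0 to 7, and the black line from 0.00 after quantile normalization to 0.11 without Selenbp1-KO replicate 2.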

How the data were processed

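Kidney RNA of 6 mice was read on 6 one-color Agilent arrays. The authors deposited the Feature Extraction output (version 9.5.1.1 in the submitters' processing notes, 10.7.1.1 in the file headers): linear intensity, background-subtracted within the array and not scaled between arrays, and, for each spot, a p-value against its background. They also deposited a table of 1 intensity per probe, quantile normalized as its 6 columns share 1 distribution; which software made it is not given in the sources used here. Sequence depth does not apply; the number of arrays limits the precision.

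Spots flagged as outliers and controls were left out, the log2 intensity was scaled to the 75th percentile of each array, and repeated spots of a probe were replaced by their mean. All probes that at least 1 array detected at p under 0.05 (56097 of 56605) were fitted together with limma (version 3.58.1, R version 4.3.3, lmFit and eBayes, two-sided), and p was adjusted by Benjamini-Hochberg over all of them. The threshold was an unadjusted p under 0.05, after the methods. A gene is its brightest probe over the 6 arrays. Members keep the file's name; other probes took a RefSeq name where the accession matched (32994 probes, 41 of the 47). Probe coordinates are those of the files (mm9), promoter windows RefSeq's (GRCm38.p6).

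Named are all genes under the rule, Selenbp1 and Selenbp2, and the other glutathione genes that passed or whose groups did not overlap. Also named are genes of the fixed groups given by their range, Ptges of the MAPEG family, and markers set beside a result. The members and lists were chosen with earlier results of these data known. Alternatives were normexp (offset 50), quantile and median scaling, the authors' values, other probe filters, outlier spots kept, trend and robust options (statmod 1.5.0), the methods' t-test, slide row or replicate number as a block, each array left out, and the mean over probes. The fit was tested on simulated data. The p-values measure the spread between these mice only.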

Additional observations from a re-analysis of the deposited data

How the results depend on the processing

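Selenbp1 kept its sign and its call in all 18 alternatives. The count of the 32 genes past an unadjusted p under 0.05 was 4 after quantile normalization and 4 in the authors' values, 7 with the trend and robust options, 2 by the methods' t-test (0 after Benjamini-Hochberg), 2 with the replicate block, and 1 with probes well above background only. Of all genes 9.1%, 9.07%, 14.1%, 7.72%, 33.2%, and 10.4% passed in these settings. The count was 0 to 1 with 1 array left out: 1 each without WT replicate 4 (Gstp2), Selenbp1-KO replicate 1 (Gstt4), replicate 2 (Gstm2), and replicate 3 (Mgst2). A count of 1 is 3.1% of the 32, and of all genes 31.9%, 5.66%, 4.87%, and 6.63% passed in these settings. The median of the 32 genes was 0.0037 after quantile normalization, 0.018 in the authors' values, and 0.0094 with slide row as a block. Of the 46 other glutathione genes 3 passed with slide row as a block and 3 with the replicate block, Gpx4 in neither. The cause of these changes was not tested.

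Replicate numbers 2 and 3 occur in both genotypes, and deviations of same-numbered arrays correlated by 0.171 and 0.187. As the labels do not say what a number marks, the pairing was not used for any result. With the replicate block, Ggt5 and Gstt4 of the 32 genes passed (lowest adjusted p 0.113), while 33.2% of all genes did, against 8.00% without it.

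A difference changed sign in at least 1 alternative for 18 genes, among them Ggt5 (0.43 as reported), Ggt7 (0.16), and Gstp2 (0.15), none of them past the test as reported. With normexp, Gstm1 was −0.0068, Gstm7 0.0086, and Gstt1 −0.0077. After quantile normalization, Gsta3 was −0.082, Gstm1 −0.11, Gstm5 −0.0196, Gstt1 −0.075, Gstz1 −0.045, and Mgst1 −0.049. With median scaling, Gstm1 was −0.0092 and Gsto2 −0.0018. In the authors' values, Gsta3 was −0.0404, Gstm1 −0.093, Gstt1 −0.041, Gstz1 −0.0087, and Mgst1 −0.0077. With slide row as a block, Ggt5 was −0.057, Ggt7 −0.063, Gss −0.094, Gsta2 −0.087, Gsta3 −0.19, Gstm1 −0.13, Gstm5 −0.012, Gsto1 0.054, Gstp2 −0.10, and Gstt2 0.19. With the replicate block, Ggt7 was −0.0101, Gstt1 −0.0301, and Mgst1 −0.047. As the mean of their probes, Gsta3 was −0.22 and Gstm7 0.17. With 1 array left out, the range was −0.16 to 0.039 for Gclm, −0.00042 to 0.18 for Ggt6, −0.12 to 0.50 for Ggt7, −0.18 to 0.0102 for Gsr, −0.052 to 0.12 for Gsta3, −0.046 to 0.075 for Gstm1, −0.13 to 0.021 for Gstm7, −0.076 to 0.032 for Gsto1, −0.11 to 0.15 for Gsto2, −0.026 to 0.057 for Gstt1, −0.12 to 0.056 for Gstt2, and −0.0499 to 0.10 for Mgst1. Signal over background limits Ggt5, Ggt7, and Gstt4.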
